A study of Mus musculus with 18 samples.

Results

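Transcripts of 6 genes known from the oocyte or the cleavage-stage embryo, Khdc3, Tcl1, Pramel6, Trim43b, Trim43c and Sp110, were followed through the days around blastocyst formation in mouse embryos with and without Oct4. They are 6 of the 8202 genes in the deposited tables, matched by symbol. Khdc3, Tcl1, Pramel6 and Sp110 had been chosen by their difference between genotypes at E3.75, so their E3.75 values are a description and carry no test. The values that led to Trim43b and Trim43c are not recorded, so both genes are described without a test at every stage. The E2.5 table holds 5 of the 6 genes (of 7082) and lacks Tcl1. The E3.75 table holds all 6 (of 6648), and the E4.5 table holds 4 (of 6545) and lacks Trim43b and Sp110. Khdc3, Pramel6 and Trim43c are among the 5430 genes that every table holds.

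The study looked for genes that depend on Oct4 in the embryo. RNA-seq libraries were made from CD1 embryos with the genotypes Oct4 +/+ (wild type) and Oct4 -/- (null), flushed from the oviduct or uterus on embryonic days E2.5, E3.75 or E4.5. Each of the 6 groups has 3 libraries, 18 in all, and the series text counts 3 embryos per genotype and stage. No group received a treatment, and how the null allele was made is not given in the sources used here. Oct4 is a POU-family transcription factor of the inner cell mass, encoded by Pou5f1.

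In the mouse the oocyte loads the embryo with transcripts that are largely removed as the embryonic genome switches on around the 2-cell stage, and another set of genes is then transcribed for a short time during cleavage. A transcript of either set that is seen in a blastocyst may be a remnant or may be made anew, and a level alone does not separate these. Khdc3 encodes FILIA, a KH-domain protein of the subcortical maternal complex of oocytes and early embryos. Tcl1 encodes a co-activator of the AKT kinase that is found in oocytes and pluripotent cells. Trim43b and Trim43c belong to a family of tripartite-motif proteins of the cleavage-stage embryo. Pramel6 encodes a leucine-rich repeat protein of the PRAME family, present in preimplantation embryos and embryonic stem cells. Sp110 encodes a nuclear body protein related to SP100 that interferon induces in somatic cells.

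Trim43b and Trim43c are near-identical copies, so their sequences come before their values. In GENCODE transcripts of the GRCm38 build, each copy has a coding sequence of 1338 bases, and the 2 match at 97.8% of aligned bases. Trim43a, another copy, matches Trim43b at 98.4% and Trim43c at 96.9%. The libraries read mainly the last part of a transcript. The transcripts of Trim43a and Trim43b are 1981 and 2262 bases long, so such reads may lie outside the coding sequence. The last 150 coding bases of the 3 genes (bases 1189 to 1338, written 5′ to 3′) are shown as a sample of their likeness. Capitals mark the 4 positions at which the copies are not all alike:
Trim43a: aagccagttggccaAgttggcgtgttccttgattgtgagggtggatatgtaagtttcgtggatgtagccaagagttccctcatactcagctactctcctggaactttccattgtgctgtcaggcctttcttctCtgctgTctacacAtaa
Trim43b: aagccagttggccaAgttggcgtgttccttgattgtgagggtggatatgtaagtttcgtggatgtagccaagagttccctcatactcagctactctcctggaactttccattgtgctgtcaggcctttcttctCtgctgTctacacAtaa
Trim43c: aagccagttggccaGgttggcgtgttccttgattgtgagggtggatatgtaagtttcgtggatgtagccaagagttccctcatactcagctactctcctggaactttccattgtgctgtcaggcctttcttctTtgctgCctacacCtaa
Trim43a and Trim43b have the same letters over this stretch, and Trim43c carries another base at all 4 capitals. Over the last 1000 bases of the transcript, 41.6% of the 50-base stretches of Trim43b and 38.7% of those of Trim43c also occur in another gene of the annotation. For Trim43c these genes were Trim43a and Trim43b. For Trim43b they were Trim43a, Trim43c and genes outside the family such as Ctsl, so its share is not the overlap of the copies alone. How the authors assigned such reads is not given in the sources used here, so the split between Trim43b and Trim43c is uncertain. The same count gave 55.8% for the Sp110 transcript, 29.7% for Khdc3, and 0 for Tcl1 and Pramel6.

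Windows of 250 bases upstream of the annotated start were read from RefSeq (build GRCm38.p6) for Khdc3, Tcl1, Pramel6 and Sp110, the last with 2 annotated starts. Khdc3 and Tcl1 are shown as the pair that was lower in the null embryos, Pramel6 and the more distant start of Sp110 as genes that were higher at E3.75. Each is written 5′ to 3′ on the gene's own strand. Capitals in Sp110 mark 2 copies of a run of 53 bases that lie end to end, and the other 3 windows have no capitals:
Khdc3 (chr9:73102148-73102397, plus strand): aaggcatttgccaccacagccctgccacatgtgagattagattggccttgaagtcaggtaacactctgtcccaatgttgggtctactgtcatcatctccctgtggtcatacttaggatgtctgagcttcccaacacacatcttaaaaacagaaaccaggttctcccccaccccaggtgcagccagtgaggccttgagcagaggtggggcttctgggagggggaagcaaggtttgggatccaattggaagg
Tcl1 (chr12:105222738-105222987, minus strand): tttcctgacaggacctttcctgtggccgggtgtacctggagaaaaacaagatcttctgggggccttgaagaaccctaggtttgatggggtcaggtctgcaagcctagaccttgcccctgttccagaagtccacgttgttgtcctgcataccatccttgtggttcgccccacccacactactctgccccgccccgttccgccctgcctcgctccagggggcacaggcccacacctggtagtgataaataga
Pramel6 (chr2:87506315-87506564, plus strand): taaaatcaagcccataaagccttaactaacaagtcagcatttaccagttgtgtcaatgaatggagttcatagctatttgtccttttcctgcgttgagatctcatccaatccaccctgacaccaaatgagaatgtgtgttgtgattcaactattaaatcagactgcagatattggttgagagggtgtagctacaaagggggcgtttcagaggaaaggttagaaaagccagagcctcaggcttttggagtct
Sp110 (chr1:85603892-85604141, minus strand): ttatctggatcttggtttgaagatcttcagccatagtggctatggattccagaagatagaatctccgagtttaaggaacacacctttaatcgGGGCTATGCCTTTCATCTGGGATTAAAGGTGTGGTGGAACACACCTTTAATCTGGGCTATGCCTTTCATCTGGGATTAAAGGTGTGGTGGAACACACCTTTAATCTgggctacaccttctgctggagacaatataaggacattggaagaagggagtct
The octamer to which POU factors such as Oct4 bind, ATGCAAAT or its reverse ATTTGCAT, was in 0 of the 5 windows and in 526 of 32851 windows of all genes (1.6%). The letters TATAAA or TTTATA were in 0 of the 5 and in 12.4% of all windows. A repeat as long as that of Sp110 was found in 34 of the 32851 windows (0.103%). These are matches of letters within the windows and say nothing of binding.

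Levels are in CPM, the reads of a gene scaled to a library total of 1000000 reads within its own table. Recovered library depth ran from 364936 reads (E4.5 null replicate 1) to 1922432 reads. Null libraries were the deeper ones at E2.5, and by the median also at the later stages, with medians of 1917754 (E2.5), 1375610 (E3.75) and 1314657 reads (E4.5), beside wild type medians of 916720, 576078 and 543033 reads, and the part of depth in the results was not tested. Pou5f1 was lower in null embryos by 0.95 (log2; adjusted p = 0.00105, limma), 0.96 (adjusted p = 8.57e-05) and 1.05 (adjusted p = 0.125, which did not pass) at the 3 stages, with null means at 0.516, 0.506 and 0.483 of the wild type means. At E4.5 Pou5f1 passed with edgeR (adjusted p = 0.0264), DESeq2 (0.000121), all 18 libraries in one limma fit (0.00192) and limma without null replicate 1 (0.0108). Whether the null allele still yields 3′ reads of Pou5f1 is not given, so this level checks the labels only in part. In each of the 6 groups 1 library, the third in the tables, came near to what mixing its 2 partners in some proportion would give. Its variance around such a mix was 1.03 to 1.25 times that of read sampling, against 1.14 to 2.79 times for the other 12. If such a library were not an embryo of its own, each group would hold 2, so the tested values of the 6 genes are also given without these libraries. Fits on fewer libraries call fewer genes (limma, 1 against 42 at E2.5 and 155 against 545 at E3.75). A call lost in them is therefore not by itself a smaller effect. The libraries are bulk RNA of embryos, in which fewer cells of a type and less RNA per cell cannot be told apart. Marker transcripts of the trophectoderm, 13 of them measured at E2.5, summed there to 4294 to 5227 CPM, and 8 of the epiblast to 664 to 816 CPM. With 16 and 12 markers measured at E4.5, the sums were 15610 to 17091 CPM and 701 to 1125 CPM. These later sums hold markers without a row at E2.5, such as Spp1 of the epiblast (mean of 314 CPM in wild type embryos). A change in the sums is therefore not a change in the same set of markers.

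Of the 6 genes, the 3 with rows in every table followed different courses. In embryos of both genotypes Khdc3 had its highest mean at E3.75, Pramel6 had a higher mean at each later stage, and Trim43c had a lower one. The levels of Trim43b, Trim43c and Sp110 were lower in blastocysts than at E2.5, as the name of early transcripts implies, while those of Khdc3 and Pramel6 went against that name and were higher. Tcl1 has no row at E2.5. If the filter left it out, most E2.5 libraries held less than 10.3 CPM, under its 24.3 to 50.3 CPM at E3.75. In the same way, most E4.5 libraries would hold less than 10.4 CPM of Trim43b and of Sp110, which have no row there. Trim43b read 83.3 to 181.0 CPM at E3.75. The tables were scaled separately, so levels of different stages are set side by side without a test. Counted as a share of the reads on the 5430 shared genes, each of the 18 steps kept its direction.

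**Figure D1:**
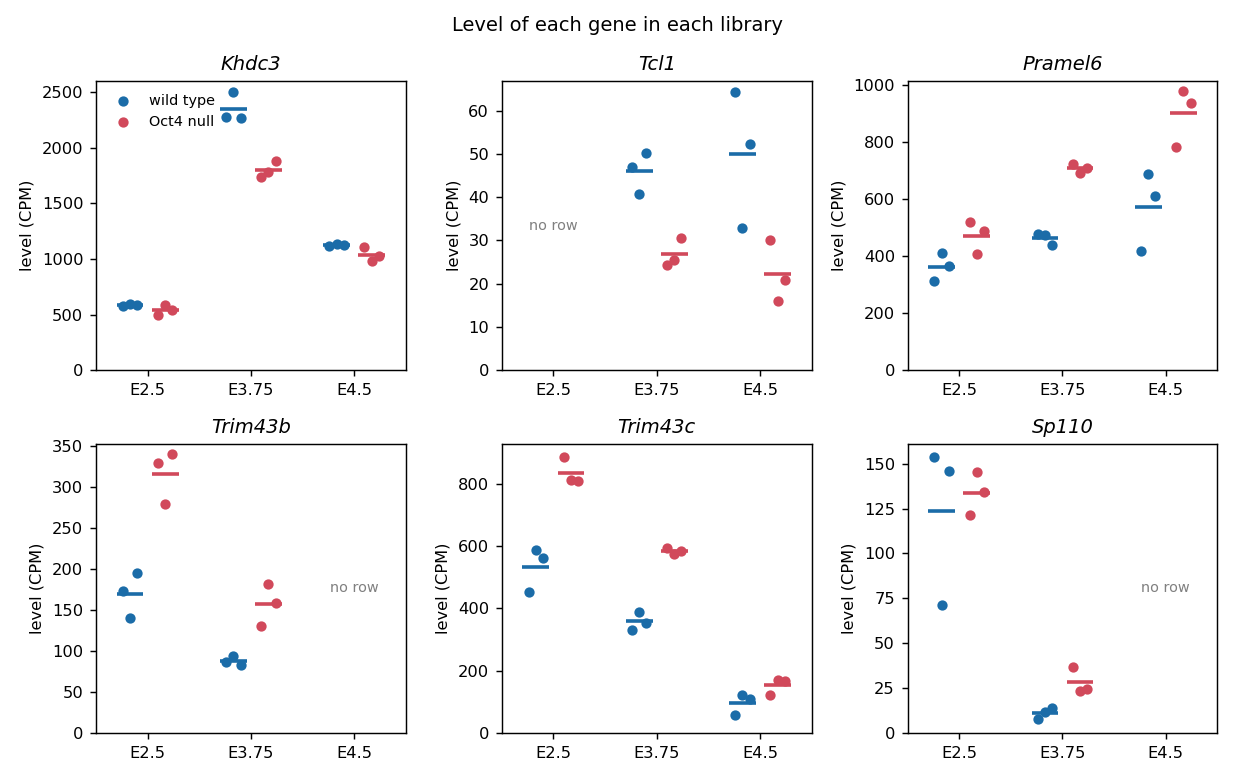
Level of each of the 6 genes in CPM (linear axes from 0, a different range in each panel) in each library, by stage; blue points are wild type and red points Oct4 null libraries, and the bar is the mean of the 3. The red points of Trim43c lie above its blue points at every stage, with lower levels at each later stage in both, and Khdc3 is highest at E3.75.

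Trim43c was higher in the null libraries at each stage, and its mean was lower at each later stage in both genotypes. At E2.5 it stood at 450.5, 585.2 and 561.8 CPM in wild type embryos and at 886.3, 811.5 and 806.7 CPM in null embryos. The E3.75 values were 331.0, 388.9 and 354.1 CPM for wild type and 591.9, 574.3 and 582.9 CPM for null. By E4.5 the levels were 58.9, 120.2 and 107.5 CPM in wild type and 120.6, 171.1 and 165.3 CPM in null embryos. All null libraries lay above all wild type libraries at each stage, with the lowest null value next to the highest wild type value at E4.5. The difference between genotypes was 0.66 ± 0.11 (log2(CPM + 1), SE), 0.71 ± 0.093 and 0.71 ± 0.25, and the null means were 1.57, 1.63 and 1.59 times the wild type means. From E2.5 to E3.75 wild type embryos kept 67.2% of the mean level and null embryos 69.8%, and from E3.75 to E4.5 they kept 26.7% and 26.1%. The genotype difference changed by 0.06 ± 0.29 (log2, SE) from E2.5 to E4.5, a spread wide enough to hide unequal loss. Over the whole interval the retained share was 17.9% and 18.2%, where the median of the 5728 genes with rows at both stages was 79.3% and 86.3%. After E3.75 the decline was steep beside that of the 5882 genes with rows at E3.75 and E4.5. Of these, 0.561% in wild type and 0.748% in null embryos kept as little. Genes that fell below the filter of the later table have no row there and are not counted, so these shares may be too low and the medians too high. The E4.5 effect rested in part on wild type library A, without which it was 0.40.

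Trim43b differed by genotype in the same direction as Trim43c at the 2 stages that hold it. At E2.5 wild type libraries held 173.4, 140.5 and 195.4 CPM and null libraries 328.2, 278.3 and 339.5 CPM. At E3.75 the values were 86.5, 93.4 and 83.3 CPM in wild type and 130.6, 181.0 and 157.9 CPM in null embryos. The groups did not overlap at either stage, and the null mean was 1.86 and then 1.78 times the wild type mean (log2 0.90 ± 0.14 and 0.82 ± 0.15, SE). Between these stages 51.7% of the level was kept in wild type and 49.6% in null embryos. The median over the 5893 genes with rows at both stages was 88.0% and 88.1%. Because reads may pass between the 2 copies, their sum was taken as well. It was 624 to 757 CPM in wild type against 1090 to 1214 CPM in null libraries at E2.5, and 417 to 482 CPM against 723 to 755 CPM at E3.75. Trim43b made up 18.1% to 29.6% of that sum over the 12 libraries. The sum was higher in null embryos at both stages. It leaves out Trim43a, which shares 50-base stretches with both copies, and the other genes that share stretches with Trim43b. Reads that pass to or from those genes are therefore not covered by the sum. Trim43a itself had lower means, 16.0 (wild type) and 37.0 (null) at E2.5, then 10.3 and 15.7 at E3.75, all in CPM. The part of read sharing in the value of each copy was not tested.

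Sp110 stood far lower at E3.75 than at E2.5 in both genotypes, and at E3.75 it was higher in null embryos. At E2.5 it read 153.8, 71.4 and 145.9 CPM in wild type and 121.2, 145.1 and 134.0 CPM in null libraries, with overlapping groups. The difference of 0.18 ± 0.25 (log2, SE; limma adjusted p = 0.711) did not pass, and it turned to -0.17 without wild type replicate 2, the low library. Without the mix-like libraries the adjusted p was 0.849 (limma). At E3.75 the wild type libraries were at 7.52, 11.9 and 13.9 CPM, from 4, 14 and 8 reads. The null libraries were at 37.0, 23.3 and 24.3 CPM, from 32, 32 and 35 reads. All 3 null values exceeded the 3 wild type values, with a difference of 1.28 ± 0.34 and a ratio of means of 2.54. The level left at E3.75 was 8.97% of that at E2.5 in wild type and 21.1% in null embryos. Of 5893 genes, 0.153% in wild type and 1.53% in null embryos were left with as little over this step. The wild type share is partly set by the filter of the tables, since Sp110 entered the E3.75 table through its null libraries and genes as low in both genotypes have no row. The change of the genotype effect between the 2 stages, 1.10 ± 0.39 (SE), includes the E3.75 comparison by which Sp110 was chosen and has no test. The transcript named for Sp110 in the tables is annotated as a processed transcript without a coding sequence.

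**Figure D2:**
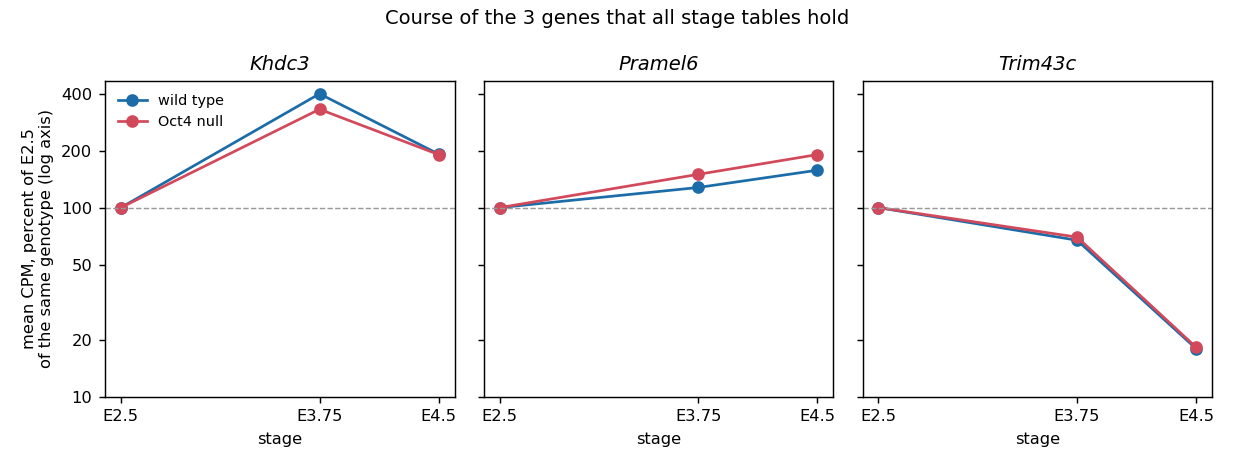
Mean level of Khdc3, Pramel6 and Trim43c (n = 3 libraries per point) as a percent of the E2.5 mean of the same genotype, on a log axis, by stage; blue is wild type and red Oct4 null. The lines of Trim43c nearly coincide and end at 17.9% and 18.2%, while Khdc3 reaches 400% in wild type and 331% in null embryos at E3.75.

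Khdc3 had its highest level at E3.75 in both genotypes, and there it was lower in null embryos. Wild type libraries held 580.3, 593.3 and 589.3 CPM at E2.5, and null libraries 498.6, 587.3 and 543.9 CPM. At E3.75 they held 2277, 2500 and 2271 CPM and 1739, 1777 and 1879 CPM. At E4.5 the values were 1120, 1136 and 1124 CPM in wild type and 1104, 981.2 and 1022 CPM in null embryos. The null libraries lay below the wild type at E3.75 by a wide margin and at E4.5 by a narrow one, and the groups overlapped at E2.5. The E3.75 mean was 400% of that at E2.5 in wild type and 331% in null embryos. Of the 5893 genes with rows at both stages, 1.38% and 2.09% matched or exceeded this ratio. Genes with no row at E2.5 are not counted in these shares. The E4.5 mean was 48.0% and 57.6% of the E3.75 mean, which left 192% and 191% of the E2.5 level at E4.5. The genotype difference was -0.38 ± 0.065 (log2, SE) at E3.75. On either side of it the differences were small and did not pass, at -0.12 (95% interval -0.31 to 0.08; limma adjusted p = 0.481) at E2.5 and -0.12 (-0.31 to 0.06; adjusted p = 0.488) at E4.5. The change in genotype effect from E2.5 to E4.5 was -0.01 (95% interval -0.26 to 0.25; adjusted p = 0.988, limma). Without the mix-like libraries these adjusted p were 0.893 at E2.5, 0.912 at E4.5 and 0.999 for the change.

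Tcl1 was counted from few reads at the 2 stages that hold it, and was lower in the null libraries at both. At E3.75 it stood at 47.0, 40.8 and 50.3 CPM in wild type libraries, from 25, 48 and 29 reads, and at 24.3, 25.4 and 30.6 CPM in null libraries, from 21, 35 and 44 reads. The E4.5 wild type values were 64.5, 33.0 and 52.4 CPM, from 35, 17 and 57 reads. Those of null embryos were 30.1, 16.0 and 20.8 CPM, from 11, 21 and 28 reads. No null library reached a wild type library at either stage, though at E4.5 the highest null value, 30.1 CPM, came close to the lowest wild type value, 33.0 CPM. The difference was -0.76 ± 0.23 (log2, SE) at E3.75. At E4.5, a comparison that had no part in choosing Tcl1, it was -1.12 ± 0.32 and did not pass after adjustment over 6545 genes (limma adjusted p = 0.171, unadjusted 0.00427). Without null replicate 1 of E4.5, the shallowest library, the adjusted p was 0.0453 (limma, effect -1.35). With edgeR on recovered reads it was 0.0547 (effect -1.37) and did not pass, and DESeq2 gave no result for Tcl1. Without the 6 mix-like libraries it was 0.832, with a similar effect of -1.04 from fewer libraries. From E3.75 to E4.5 wild type embryos held 108% of the level and null embryos 83.4%.

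Pramel6 had a higher mean at each later stage in both genotypes, and the null libraries stood above the wild type ones at E3.75 and E4.5. At E2.5 the libraries gave 313.1, 410.1 and 366.4 CPM in wild type and 520.6, 407.3 and 489.6 CPM in null embryos, which overlapped by 1 pair of libraries. At E3.75 wild type embryos held 477.6, 475.5 and 439.2 CPM and null embryos 724.8, 690.6 and 710.2 CPM. At E4.5 the levels were 419.9, 688.3 and 610.1 CPM in wild type and 783.7, 981.2 and 938.9 CPM in null embryos. All null libraries exceeded all wild type libraries at the 2 later stages. The null means were 1.30, 1.53 and 1.57 times the wild type means. The E2.5 difference of 0.38 ± 0.13 (log2, SE) did not pass (limma adjusted p = 0.127, unadjusted 0.0111), nor did that at E4.5, 0.68 ± 0.16 (adjusted p = 0.143, unadjusted 0.00153). At E3.75 the difference was 0.61 ± 0.085. Over the whole interval the level went to 158% in wild type and 191% in null embryos, and the effect changed by 0.30 from E2.5 to E4.5 (95% interval -0.17 to 0.76; adjusted p = 0.569, limma). For E4.5 the call depended on the method, as DESeq2 on recovered reads gave an adjusted p of 0.00847 and edgeR 0.0559. It depended on single libraries too, with limma adjusted p of 0.0256 at E2.5 without wild type replicate 2 and 0.0396 at E4.5 without null replicate 1. Without the mix-like libraries the adjusted p was 0.733 at E2.5, 0.832 at E4.5 and 0.951 for the change (limma). The effects were similar to those of all libraries, at 0.361, 0.705 and 0.344.

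**Figure D3:**
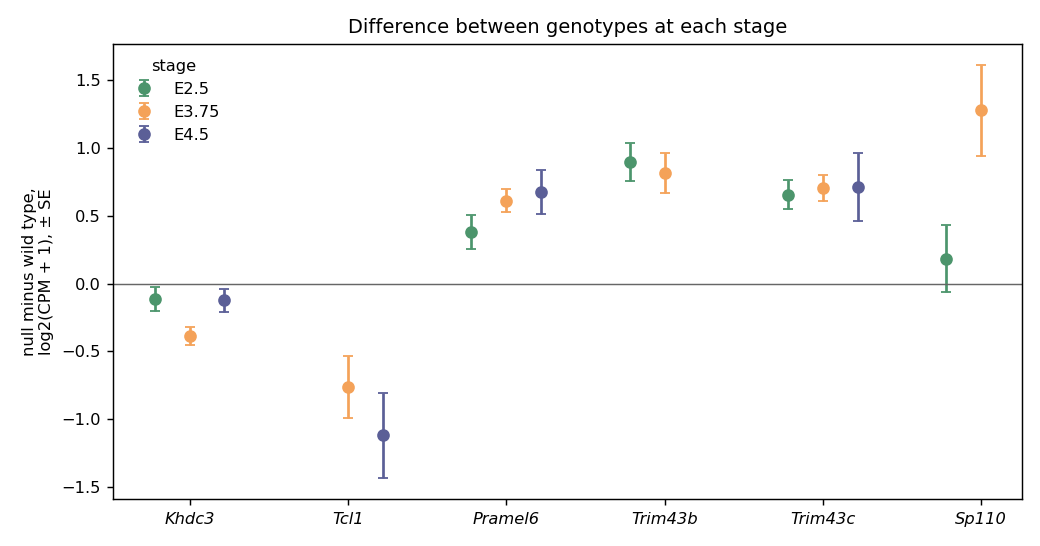
Difference between genotypes for each gene and stage, null minus wild type, on the log2(CPM + 1) scale; points are the limma estimates from 3 against 3 libraries and bars are ± 1 SE. Pramel6, Trim43b, Trim43c and Sp110 lie above 0 and Khdc3 and Tcl1 below it, with Trim43c between 0.66 and 0.71 at all stages; the E3.75 values are those by which 4 of the genes were chosen.

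Of the tests that the choice of genes left free, 0 of 3 passed at E2.5 (Khdc3, Pramel6, Sp110) and 0 of 3 at E4.5 (Khdc3, Tcl1, Pramel6). Over all genes limma called 42 of 7082 at E2.5 (0.593%, with 0.409% higher and 0.184% lower in null embryos) and 0 of 6545 at E4.5 (0%). At an unadjusted p under 0.05, 1 of the 3 at E2.5 and 2 of the 3 at E4.5 were counted, where all genes gave 20.4% and 15% (985 genes). On recovered reads edgeR called 42 genes and DESeq2 112 at E4.5. The change in genotype effect between E2.5 and E4.5 passed for 0 of 2 genes (Khdc3, Pramel6), for 6 of 5728 genes in all (0.105%), and had an unadjusted p under 0.05 for 14.9% of them. At E3.75, the stage that chose the members, limma called 545 of 6648 genes (8.2%), and 22.8% had an unadjusted p under 0.05.

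The libraries of the 2 genotypes did not overlap for 2 of the 5 genes at E2.5, Trim43b and Trim43c, both higher in null embryos. Among all genes 27.8% did not overlap at this stage, 13.6% with null above and 14.1% with null below. At E3.75 all 6 genes were without overlap (4 above, 2 below; over all genes 27.2%, 11.4% and 15.7%), which the choice of genes favours. At E4.5 all 4 measured genes were without overlap, 2 above and 2 below, and over all genes 22.2% were, 12.2% above and 9.99% below. Trim43c was 1 of 32 genes among 5430 (0.589%) with every null library above every wild type library at all 3 stages. Trim43b was 1 of 173 among 5893 (2.94%) with this order at E2.5 and E3.75. What led to the choice of these 2 genes is not recorded. The order may have had a part in it, so the 2 shares are a description. The median difference of the measured members was 0.38, 0.66 and 0.28 (log2) at the 3 stages, beside -0.02, -0.04 and 0.06 over all genes. The E3.75 median rests on values by which 4 of the genes were chosen. Each median includes Trim43c, whose choice is not recorded, so all 3 are a description.

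Other genes of the oocyte and of cleavage were few in these tables, and most did not pass. Of an oocyte and maternal-effect list, the tables of the 3 stages in turn held 6, 5 and 3 genes, with the 6 genes above left out. Dppa3, which encodes the maternal factor Stella, was higher in null embryos at E3.75, at 1396 ± 37.2 CPM against 1125 ± 127 CPM (SD, n = 3; difference 0.32, limma adjusted p = 0.0141), the single call of this list. It did not pass without wild type replicate 3 (limma adjusted p = 0.0527), null replicate 1 (0.0754) or the mix-like libraries (0.0971), nor with all 18 libraries in one limma fit (0.0717). Its E2.5 difference pointed the other way without passing, at 1268 ± 14.8 against 1505 ± 87.4 CPM (-0.25, adjusted p = 0.0926). Ooep, a partner of Khdc3 in the subcortical maternal complex, had the smallest p of the list at E4.5 and did not pass (156 ± 7.96 CPM in wild type, 185 ± 7.33 CPM in null; 0.24, adjusted p = 0.381). Like Khdc3, Ooep was more abundant after E2.5, with 18.8 CPM in wild type against 15.1 CPM in null embryos at E2.5 and 142 and 138 CPM at E3.75. The median difference of the list was 0.20, -0.05 and 0.22.

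Genes of the 2-cell stage came to 5, 2 and 1 measured, none of them called. Eif1a, a translation initiation factor, was the sole gene left at E4.5, at 163 ± 34.2 and 162 ± 19.4 CPM (SD, n = 3; limma adjusted p = 0.999). The median of the list was 0.16, 0.31 and -0.0003. Of the Pramel and Trim43 families 3, 2 and 1 further genes were measured, and Pramel5 passed at E3.75. Pramel5, a PRAME family gene like Pramel6, read 183 ± 10.7 CPM in wild type against 311 ± 7.97 CPM in null embryos (0.76, adjusted p = 0.000123). Unlike that of Pramel6, its mean was lower at each later stage, from 736 CPM in wild type against 884 CPM in null embryos at E2.5 to 30.3 and 46.3 CPM at E4.5, and did not pass at those stages (adjusted p = 0.190 and 0.409). Trim43a, which stands in both lists, read 16.0 ± 2.18 CPM in wild type against 37.0 ± 5.97 CPM in null embryos at E2.5 (1.15, limma adjusted p = 0.0605). Over its alternatives the adjusted p ran from 0.0139 (limma without wild type replicate 1) to 0.685 (limma without the mix-like libraries), and it passed under 4 of 15, among them edgeR (0.0395) and DESeq2 (0.0336) on recovered reads. At E3.75 it was at 10.3 and 15.7 CPM (0.53, adjusted p = 0.467), and 56.9% of its 50-base stretches are shared with other genes. The median of the families was 0.26, 0.65 and 0.54. The share of all genes called higher at E3.75 was 3.6%, and 4.6% were called lower.

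**Figure D4:**
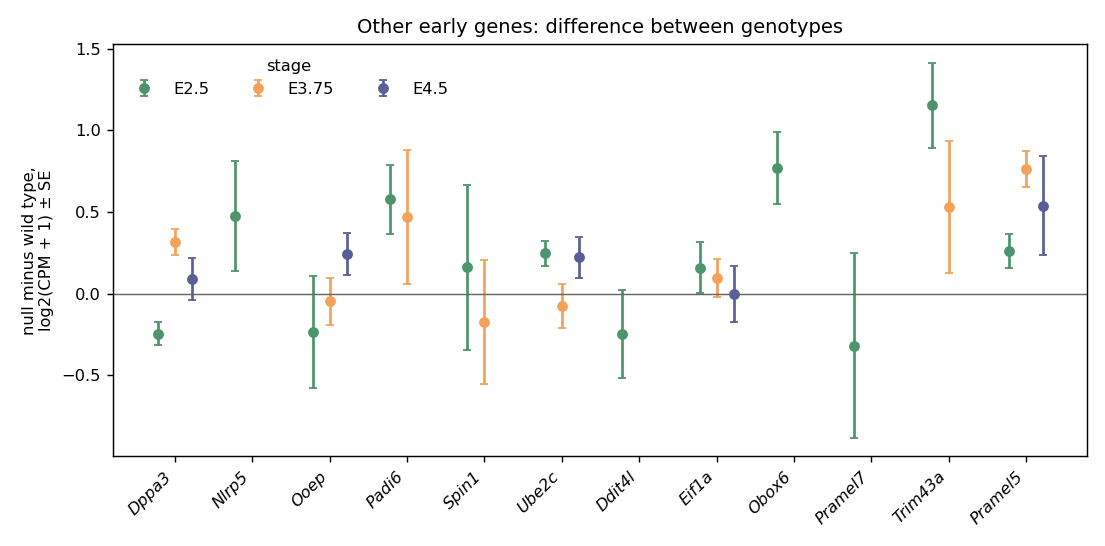
Difference between genotypes, null minus wild type on the log2(CPM + 1) scale ± SE (n = 3 against 3), for every other measured gene of the oocyte, 2-cell stage and Pramel and Trim43 family lists; colours are stages, and a missing point means no row in that stage's table. Trim43a at E2.5 is the highest point at 1.15, and Pramel5 and Dppa3 at E3.75 are the 2 calls.

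Genes of mRNA deadenylation and decay, the machinery that clears maternal transcripts, were measured in larger number, 37, 35 and 34. None was called at E2.5 or E4.5. At E3.75 Exosc10, a nuclease of the nuclear exosome, was lower in null embryos, at 13.5 ± 6.77 against 29.7 ± 4.44 CPM (-1.21, limma adjusted p = 0.0405), a call lost with edgeR (0.0547) and without wild type replicate 2 (0.0667), wild type replicate 3 (0.153), null replicate 1 (0.216) or the mix-like libraries (0.133). The gene with the smallest p at E2.5 was Cnot6, a deadenylase of the CCR4-NOT complex (50.6 ± 11.7 and 26.8 ± 5.64 CPM; -0.89, adjusted p = 0.0978). At E4.5 it was Pabpc1, which binds poly(A) tails (248 ± 23.0 and 175 ± 13.7 CPM; -0.50, adjusted p = 0.169). The list's median was 0.04, -0.08 and 0.02, close to that of all genes.

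Because Sp110 is known as an interferon-induced gene, an interferon response list was set beside it. Of its 7, 3 and 4 measured genes, Oasl2, an OAS-like antiviral protein, was higher in null embryos at E2.5 (61.1 ± 9.27 and 121 ± 20.4 CPM; 0.97, limma adjusted p = 0.0413). Pml, which encodes the scaffold of nuclear bodies, was lower at E3.75 (41.1 ± 8.01 and 23.0 ± 2.13 CPM; -0.80, adjusted p = 0.0457), the stage at which Sp110 was higher. Without wild type replicate 3 and without any 1 of the null libraries, without the mix-like libraries, and under the replicate block (adjusted p = 0.0777), Oasl2 did not pass. The call of Pml was lost with edgeR (0.0517), DESeq2 (0.152) and the block (0.0626), without the mix-like libraries (0.516), and without any 1 library but wild type replicate 1. In limma it was also lost with TMM scaling (0.0609), DESeq2 size factors (0.0602) and all 18 libraries in one fit (0.0852). At E4.5 Ifitm2, a membrane protein that restricts viral entry, had the smallest p (15.6 ± 2.51 and 7.0 ± 1.5 CPM; -1.06, adjusted p = 0.248). The medians were -0.06, -0.80 and -0.49.

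Of the markers of maternal somatic cells, 2 globins differed by genotype at E3.75. Of 5 measured, Hba-a1 and Hbb-bs, globins of red blood cells, were higher in null embryos, at 62.8 ± 28.4 against 24.0 ± 4.29 CPM (1.27, limma adjusted p = 0.0052) and at 199 ± 94.7 against 93.5 ± 24.9 CPM (1.00, adjusted p = 0.00818). The third globin, Hbb-bt, did not pass (0.80, adjusted p = 0.136), nor did the markers of other cells, Muc1 of epithelium (-0.32, adjusted p = 0.678) and Lyz2 of macrophages (0.18, adjusted p = 0.709), limma. The list summed to 150 to 231 CPM in wild type against 235 to 511 CPM in null libraries. Hba-a1 and Hbb-bs did not pass without null replicate 1 (limma adjusted p = 0.0744 and 0.0888) or with all 18 libraries in one limma fit (0.0544 and 0.166). Hbb-bs did not pass with DESeq2 either (0.114). The part of such RNA in the E3.75 values of the 6 genes was not tested. At E2.5 and E4.5 none of the 3 and 4 measured markers was called; Hba-a1 read 263 ± 32.9 and 239 ± 42.0 CPM (adjusted p = 0.610) and Hbb-bs 144 ± 49.1 and 366 ± 327 CPM (adjusted p = 0.40). The summed level was 1024 to 1437 CPM in wild type against 1076 to 1330 CPM in null libraries at E2.5, and 155 to 275 CPM and 158 to 1099 CPM at E4.5. Medians were -0.04, 0.80 and 0.82.

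At E3.75, where 3.6% of all genes were called higher and 4.6% lower in null embryos, 7 of 11 epiblast markers were lower and 1 higher. Of 12 primitive endoderm markers 5 were lower and 2 higher. Of 15 trophectoderm markers 1 was higher, a share near that of all genes. At E2.5, 0 of 8 epiblast, 0 of 7 primitive endoderm and 1 of 13 trophectoderm markers (higher) were called, and at E4.5 0 of 12, 0 of 11 and 0 of 16. The part of a changed cell make-up in the values of Khdc3, Tcl1 and Pramel6 was not tested.

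Across the 18 libraries, the genes whose log2 levels were most like those of the 3 genes in every table were sought among 3990 genes, as a description in which stage dominates and in which libraries of a stage share a table. Khdc3 was most like Zfp42, the pluripotency-associated zinc finger gene also called Rex1 (Pearson r = 0.969), Lgals4, a galectin (0.966), and Slc25a5, a mitochondrial ADP/ATP carrier (0.966). Zfp42 averaged 81.8, 255 and 168 CPM in wild type embryos and 83.3, 226 and 139 CPM in null embryos at the 3 stages. Lgals4 averaged 31.9, 421 and 78.9 CPM in wild type embryos and 23.3, 244 and 106 CPM in null embryos. Trim43c was most like Gm5612 (r = 0.985), Timd2 (0.981) and Vnn1, a pantetheinase (0.981). Vnn1 stood at 231, 200 and 53.8 CPM in wild type and 330, 288 and 81.4 CPM in null embryos, and Gm5612 at 207, 156 and 49.1 CPM and 303, 261 and 73.2 CPM, so both had lower means at each later stage and higher means in null embryos. Timd2 had this pattern too, at 3508, 1682 and 514 CPM in wild type and 3649, 3136 and 781 CPM in null embryos at the 3 stages. Pramel6 was less closely matched, by Lrrc59 (0.897), Fam151a (0.892) and Acot11, an acyl-CoA thioesterase (0.890). Fam151a and Acot11 overlap in the GRCm38.p6 annotation and had nearly the same levels (345 and 347 CPM in wild type at E2.5), so they may count the same reads.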

How the data were processed

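Total RNA of embryos was reverse transcribed from an oligo(dT) primer and amplified, which concentrates reads near the 3′ end, per the labels' protocols. For each stage the authors deposited a table of CPM values. Per the submitters' processing notes edgeR and mm9 were used. Which aligner, counter and annotation were used is not given in the sources used here. Columns sum to 1000000, and every gene reaches 10.3 CPM or more in 3 of its 6 libraries. Dividing by the worth of 1 read (0.5202 to 2.74 CPM) gave whole reads for 121650 of 121650 values (100%, within 0.01). E4.5 wild type columns share 1 name, so these libraries are called A, B and C.

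limma 3.58.1 (R 4.3.3) was fitted per stage to log2(CPM + 1) with a variance trend, two-sided, with Benjamini-Hochberg adjustment over all genes and a threshold of 0.05. The test had been planned for either unit, and CPM led to limma. This scale understates changes of low genes. The p-values measure spread between these libraries. The change of effect from E2.5 to E4.5 is a contrast of both stages. edgeR 4.0.16 and DESeq2 1.42.0 on recovered reads, other scalings, pseudocounts, filters and subsets of libraries were alternatives. The fits were tested on simulated data.

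The 6 genes and the 9 lists (oocyte and maternal effect, 2-cell stage, Pramel and Trim43 families, mRNA deadenylation and decay, interferon response, maternal somatic cells, epiblast, primitive endoderm, trophectoderm) were chosen with earlier results of these data known. Named beside the members are Pou5f1, of each list outside cell types and lineages and each stage the called genes with the smallest p (up to 4) or else the gene with the smallest p, and the 3 genes with the highest correlation to each member in all tables (mean of at least 50 CPM in 1 group). Of the members, 4 matched a RefSeq upstream window.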

Additional observations from a re-analysis of the deposited data

How the results depend on the processing

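At E2.5 the count of the 3 tested genes that passed was 0 to 1 when 1 library was left out, 1 without wild type replicate 2 (Pramel6, limma adjusted p = 0.0256). At E4.5 it was 0 to 2 when 1 library was left out, 2 without null replicate 1 (Tcl1 and Pramel6), 1 with DESeq2 and 1 with all 18 libraries in one fit (Pramel6, limma adjusted p = 0.0121). The DESeq2 test and the fit of all 18 libraries gave no result for Tcl1. The change of effect between E2.5 and E4.5 passed for 0 genes under all 21 alternatives. For Khdc3 this change, -0.01, lay near 0 and ran from -0.0664 to 0.0515 when 1 library was left out, above 0 for 4 of them (0.00247, 0.00277, 0.0320 and 0.0515), and turned to 0.00106 without the mix-like libraries. With 1 library left out Sp110 at E2.5 ran from -0.17 (without wild type replicate 2) to 0.38, and Eif1a at E4.5 from -0.13 to 0.158 (without wild type library A), with 0.101 without null replicate 1. The cause was not tested. All 93 alternative values of the 6 genes at E3.75 and all 18 alternative steps between stages moved by less than the spread of replicates.

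The count of called genes at E2.5 (42) was 99 with TMM scaling, 93 with DESeq2 size factors, 179 with edgeR, 232 with DESeq2, 139 with all 18 libraries, 1 without the mix-like libraries and 1 to 773 when 1 library was left out. At E3.75 (545) it was 288 with DESeq2, 213 with all 18 libraries, 155 without the mix-like libraries and 209 to 652 when 1 library was left out. At E4.5 (0) it was 2 with TMM, 1 with a pseudocount of 5, 42 with edgeR, 112 with DESeq2, 221 with all 18 libraries and 0 to 120 when 1 library was left out. For the change of effect (6) it was 36 with edgeR, 78 with DESeq2, 55 with all 18 libraries and 0 to 52 when 1 library was left out. At E2.5 and E3.75 the deviations of libraries of the same replicate number correlated at -0.0297 to 0.128, and those of different numbers at -0.0956 to 0.0866. The highest value was that of replicate 2 at E2.5. Values this low from so few libraries do not settle whether the numbers pair them. At E4.5 the wild type columns carry no number of their own, and no pairing was checked. With the replicate block 30 genes were called at E2.5 and 438 at E3.75, 0 of the tested genes passed at E2.5 and the adjusted p of Pramel6 was 0.167. Depth limits Tcl1 at E4.5, with 11 to 57 reads a library, and Sp110 at E3.75, with 4 to 35.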
